A study of Mus musculus with 10 samples.

Results

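Here 10 genes of the MHC class I pathway were followed in whole mouse thymus after knock-out of Usp7, which encodes a deubiquitinating enzyme. They were chosen by symbol and comprise the heavy chains H2-K1, H2-D1 and H2-Q7, the light chain B2m, the peptide transporter subunits Tap1 and Tap2, the chaperone Tapbp, the immunoproteasome subunits Psmb8 and Psmb9, and the transactivator Nlrc5. All 10 were among the 35375 features of the count table and among the 19511 tested. Psmb9 was matched by its row name and the other 9 genes by Ensembl identifier. In homozygous KO thymus 5 of the 10 fell, namely the 3 heavy chains, Tapbp and Nlrc5, to between 28.3% (Nlrc5) and 68.9% (Tapbp) of wild type. Of all tested genes 25.8% were called (adjusted p under 0.05, edgeR), with 13.2% of tested genes called lower. The other 5 (B2m, Tap1, Tap2, Psmb8 and Psmb9) had log2 fold changes between -0.07 and 0.04 and were not called. In heterozygous KO thymus 0 of the 10 were called, where 3 of all 19511 tested genes (0.0154%) were.

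The thymus was taken 3 days after birth from mice of C57BL/6J background, and ribosomal RNA was depleted before stranded libraries of total RNA were made. The groups were homozygous KO of USP7 in the hematopoietic system (n = 3), heterozygous KO (n = 3) and USP7 wild type (n = 4). The series describes 2 of the wild types as having induced cre, the recombinase used to delete genes, and 2 as lacking it, without saying which library is which. In the names of the count columns wild types 1 and 2 carry the word wt again and wild types 3 and 4 the word het after wt, and what the second word stands for is not given. Their titles and genotype labels put all 4 in the wild-type group. With either pair alone as controls, 5 of the 10 genes were called in homozygous KO and 0 in heterozygous KO. Of all tested genes 2 were then called in heterozygous KO. The labels name neither the driver of cre nor the deleted exons, and they do not give sex. The thymic stroma is not hematopoietic, so deletion is not stated for it in any group. Sequencing depth differed: the wild-type libraries held 39.8 to 86.4 M counts, the heterozygous KO libraries 90.5 to 97.4 M and the homozygous KO libraries 92.3 to 122 M. Levels are given as CPM (counts scaled to a common library size by TMM), on which a floor of 3 counts was worth between 0.0260 and 0.0737 CPM depending on the library, which covers counting error only. The replicates were separate animals by their numbers. Markers of double-positive thymocytes, the most abundant cell of the thymus, were high in every library, with a summed level of 7498 to 10529 CPM over 8 genes.

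Usp7 itself was measured at 303, 422 and 408 CPM in homozygous KO, 472, 516 and 516 CPM in heterozygous KO, and 676, 670, 594 and 589 CPM in wild type. The 3 groups did not overlap. The homozygous KO libraries held 59.7% of the wild-type level (log2 fold change -0.74, SE 0.11, adjusted p = 0.000525, edgeR quasi-likelihood test). The heterozygous KO level was lower by less (log2 fold change -0.34, adjusted p = 0.608, edgeR) and was not called, although an exact permutation test of this single gene gave p = 0.0286, the smallest that 35 splits allow.

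MHC class I molecules display short peptides from inside the cell on its surface. The immunoproteasome cuts proteins into peptides, the TAP transporter carries them into the endoplasmic reticulum, and tapasin and other chaperones load them onto a heavy chain paired with beta-2-microglobulin. NLRC5 is a transactivator that acts on the promoters of many of these genes, through a conserved set of promoter elements known as the SXY module, and interferons raise the pathway as a whole. In the thymus, class I molecules on epithelial and dendritic cells select CD8 T cells, and thymocytes themselves carry less class I while double-positive than after maturation.

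The heavy-chain genes share a conserved upstream block, which is shown because H2-K1 and H2-Q7, with Nlrc5, were the members that fell most. The sequences were taken from the RefSeq promoter windows (250 bases before the start of transcription, GRCm38.p6), which were found for 8 of the 10 genes, not for Tap2 and Nlrc5. Capitals mark GGGGATTCC (the core of an NF-kappaB site), TGACGC (the core of an X2 box) and CCAAT or its reverse complement ATTGG (a Y box). H2-K1 is read on the minus strand at chr17:34000349-34000468, 2 to 121 bases before its start, and H2-Q7 on the plus strand at chr17:35439012-35439129, 26 to 143 bases before its start. Of H2-D1 only the 29 bases around the first motif are printed, at chr17:35262913-35262941 on the plus strand, since one GENCODE transcript starts farther upstream.
H2-K1: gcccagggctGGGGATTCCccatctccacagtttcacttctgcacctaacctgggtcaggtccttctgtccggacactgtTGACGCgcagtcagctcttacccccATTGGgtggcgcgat
H2-D1: gcccagggctGGGGATTCCccatctcctc
H2-Q7: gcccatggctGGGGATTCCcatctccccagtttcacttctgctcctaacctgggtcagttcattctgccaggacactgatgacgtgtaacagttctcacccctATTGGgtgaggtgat

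Over this block H2-K1 and H2-D1 were identical at 108 of 120 aligned bases, and H2-K1 and H2-Q7 at 101 of 120. Searched on both strands, GGGGATTCC was found in 0.213% of all 32851 promoter windows. It stood in the windows of the 3 heavy chains and of none of the other 5 members with one, including Tapbp, which fell. The 3 blocks are near copies, so these shared letters do not count as 3 separate finds. Other heavy-chain genes, some of which did not fall, were not looked up, and a link to the fall was not tested. TGACGC, found in 6.12% of windows, stood in those of H2-K1 and H2-D1, and these letters were not in the H2-Q7 window. CCAAT is common, at 33.8% of windows, and was found for every member with a window except Psmb8. B2m, whose RNA was not called, has a different upstream stretch, identical to that of H2-K1 at 67 of 135 aligned bases. It lies at chr2:122147538-122147648 on the plus strand, 39 to 149 bases before the start, and capitals mark GAAACTGAA, a match to the interferon-stimulated response element core GAAANNGAA (7.13% of windows), and ATTGG. The windows of the other members, heavy chains included, were searched for the same core and held no exact match. Variant forms of it were not searched for, so such forms may stand in the heavy-chain blocks.
B2m: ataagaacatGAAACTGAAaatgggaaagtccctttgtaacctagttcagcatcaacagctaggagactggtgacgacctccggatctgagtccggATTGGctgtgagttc

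By the RefSeq starts, Psmb9 and Tap1 begin on opposite strands with 225 bases between them, so that 1 stretch lies upstream of both. The only motif of the search in it was 1 CCAAT. In GENCODE these genes overlap, and the span of Psmb9 (chr17:34181987-34187764) covers this stretch. The matches are matches of exact letters, so variant forms of a site were not searched for in any stretch. Absence of a match does not mean absence of a site, and no match was shown to be bound.

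H2-K1, one of the 2 classical heavy chains of this strain and on the minus strand at chr17:33996017-34000347 (GENCODE, GRCm38, as for the genes that follow), was measured at 46.8, 53.0 and 42.4 CPM in homozygous KO, 110, 120 and 135 CPM in heterozygous KO and 124, 121, 143 and 120 CPM in wild type. Every homozygous KO library lay far below every other library, and the heterozygous KO libraries overlapped the wild types. The homozygous KO level was 37.3% of wild type (log2 fold change -1.42, SE 0.10, adjusted p = 3.45e-06, edgeR).

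H2-D1, the other classical heavy chain (chr17:35262730-35267499), was at 74.7, 98.6 and 70.5 CPM in homozygous KO, 132, 156 and 164 CPM in heterozygous KO and 142, 144, 157 and 154 CPM in wild type. Homozygous KO was again apart from both other groups, with its second library the highest of the 3. The fall was to 54.5% of wild type (log2 fold change -0.88, SE 0.11, adjusted p = 0.000257, edgeR). It was smaller than that of H2-K1: the ratio of H2-K1 to H2-D1 counts within a library averaged 0.588 in homozygous KO and 0.851 in wild type, with no overlap (exact permutation test, p = 0.0286, adjusted p = 0.118 over 33 ratio tests).

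H2-Q7, a heavy chain of the Qa-2 type (chr17:35439155-35443773), was the least abundant member, at 1.53, 2.10 and 2.06 CPM in homozygous KO, 4.70, 6.40 and 7.58 CPM in heterozygous KO and 6.95, 5.92, 7.25 and 5.08 CPM in wild type. These values rest on 176 to 696 counts per library. All homozygous KO libraries were below all others, and the level was 30.1% of wild type (log2 fold change -1.73, SE 0.21, adjusted p = 0.000160, edgeR). Heavy-chain genes are near copies of each other, and 12% of the 100-base words of the H2-Q7 transcripts also occur in transcripts of other genes, against 3.59% for H2-D1 and 0.957% for H2-K1, so counts may be split between copies. With the reads of H2-Q6 and H2-Q7 summed, an alternative chosen after seeing the data, the log2 fold change was -1.39 (adjusted p = 0.000587, edgeR).

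B2m encodes beta-2-microglobulin, the light chain that every class I heavy chain pairs with (chr2:122147686-122153083). It was at 203, 267 and 200 CPM in homozygous KO, 217, 223 and 240 CPM in heterozygous KO and 218, 217, 226 and 205 CPM in wild type. The homozygous KO libraries included both the highest and the lowest of the 10. The log2 fold change was 0.04 with an approximate 95% interval of -0.14 to 0.23 (adjusted p = 0.758, edgeR).

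Heavy and light chain moved apart within the same library. H2-K1 counts were 0.214 ± 0.0164 (SD, n = 3) of B2m counts in homozygous KO, 0.536 ± 0.0256 (n = 3) in heterozygous KO and 0.586 ± 0.0321 (n = 4) in wild type. The ratio of H2-D1 to B2m averaged 0.364, 0.662 and 0.690 in the same order, and that of H2-Q7 to B2m 0.00857, 0.0273 and 0.0290. None of these 3 ratios overlapped between homozygous KO and wild type, each with p = 0.0286 by exact permutation, the smallest possible, and 0.118 after adjustment over the 33 ratio tests made (11 ratios, 3 comparisons). A ratio of counts within 1 library does not depend on how libraries are scaled.

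**Figure D1:**
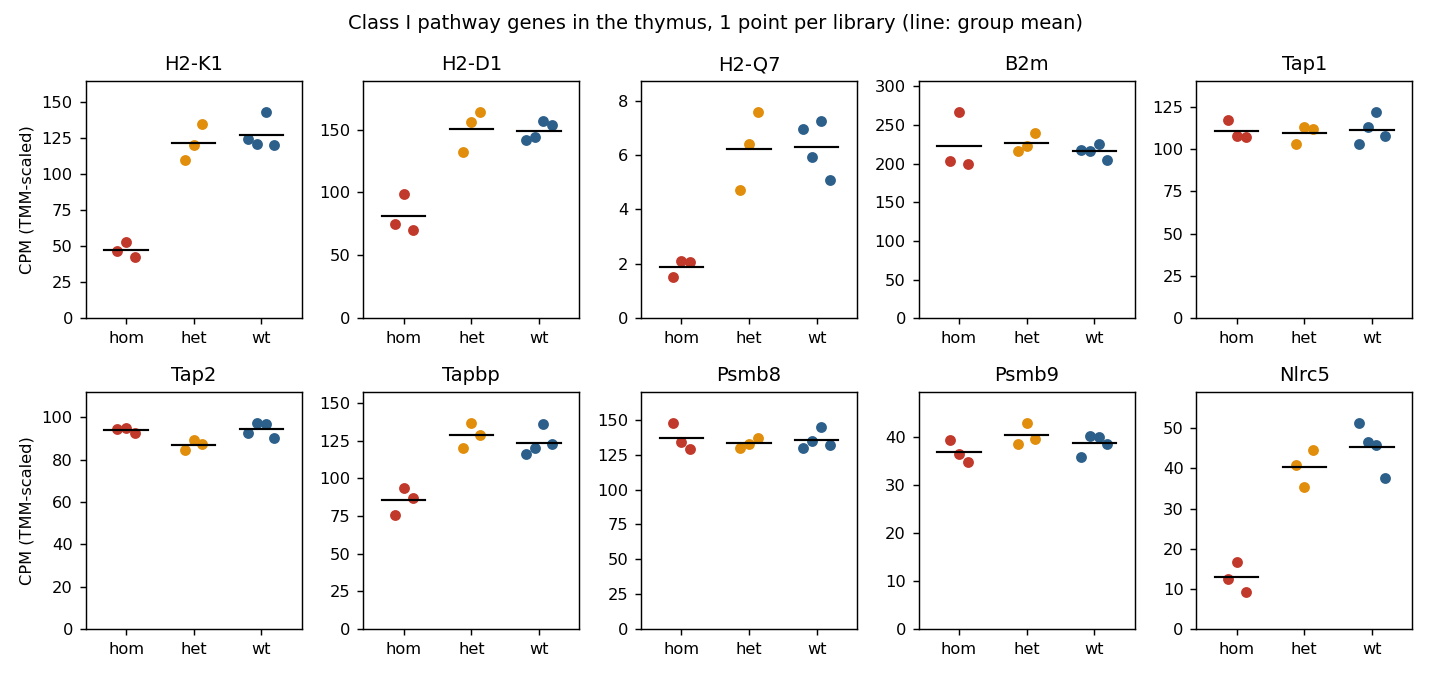
TMM-scaled CPM (linear axis from 0) of the 10 genes in homozygous KO (hom, n = 3), heterozygous KO (het, n = 3) and wild type (wt, n = 4), with 1 point per library and a line at the group mean. In H2-K1, H2-D1, H2-Q7, Tapbp and Nlrc5 the homozygous KO points lie below all others, for H2-K1 at 42.4 to 53.0 CPM, and in the other 5 panels they overlap the wild types.

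The Tap1 and Tap2 proteins form the transporter that moves peptides into the endoplasmic reticulum. Tap1 (chr17:34187553-34197225) was at 117, 108 and 107 CPM in homozygous KO, 103, 113 and 112 CPM in heterozygous KO and 103, 113, 122 and 108 CPM in wild type. The groups overlapped, and the log2 fold change of homozygous KO was -0.01 with an interval of -0.14 to 0.11 (adjusted p = 0.901, edgeR).

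Tap2 (chr17:34203527-34216321) was at 94.3, 95.1 and 92.7 CPM in homozygous KO, 84.6, 89.3 and 87.3 CPM in heterozygous KO and 92.5, 97.4, 97.0 and 90.3 CPM in wild type. The homozygous KO libraries lay inside the wild-type range. The log2 fold change was -0.00 with an interval of -0.10 to 0.09 (adjusted p = 0.959, edgeR), the narrowest of the 10 genes.

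Tapbp encodes tapasin, the chaperone that bridges the transporter and the empty class I molecule (chr17:33915899-33929292). It was at 75.7, 93.8 and 86.8 CPM in homozygous KO, 120, 137 and 129 CPM in heterozygous KO and 116, 120, 136 and 123 CPM in wild type. Homozygous KO did not overlap the other groups, and its level was 68.9% of wild type (log2 fold change -0.54, SE 0.08, adjusted p = 0.000759, edgeR). The ratio of Tapbp to Tap1 counts averaged 0.776 in homozygous KO against 1.11 in wild type, with no overlap (exact permutation p = 0.0286, adjusted p = 0.118). Tapbp overlaps Zbtb22 on the same strand in the annotation, and reads of the shared part cannot be told apart.

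Psmb8 and Psmb9 are 2 of the catalytic subunits that turn the proteasome into the immunoproteasome. Psmb8 (chr17:34197721-34201454) was at 148, 134 and 129 CPM in homozygous KO, 130, 133 and 137 CPM in heterozygous KO and 130, 135, 145 and 132 CPM in wild type. The 3 groups overlapped, with a log2 fold change of 0.02 for homozygous KO and an interval of -0.10 to 0.13 (adjusted p = 0.876, edgeR).

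Psmb9, on the minus strand at chr17:34181987-34187764, was at 39.3, 36.3 and 34.7 CPM in homozygous KO, 38.5, 42.9 and 39.5 CPM in heterozygous KO and 35.8, 40.1, 40.0 and 38.4 CPM in wild type. These groups overlapped as well, with a log2 fold change of -0.07 and an interval of -0.21 to 0.07 (adjusted p = 0.506, edgeR). Psmb9 and Tap1 overlap on opposite strands in the annotation, and whether strand was used in counting is not given in the sources used here. Their ratio, Tap1 to Psmb9, averaged 3.01 in homozygous KO, 2.72 in heterozygous KO and 2.89 in wild type.

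Nlrc5, the transactivator (chr8:94434356-94527272), had the largest fall of the 10 genes in this comparison. It was at 12.5, 16.8 and 9.24 CPM in homozygous KO, 40.8, 35.3 and 44.6 CPM in heterozygous KO and 51.4, 46.6, 45.8 and 37.7 CPM in wild type. The highest homozygous KO library was below the lowest of any other group, while heterozygous KO and wild type overlapped. The level was 28.3% of wild type (log2 fold change -1.82, SE 0.18, adjusted p = 4.70e-05, edgeR).

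The 5 calls of 10 in homozygous KO against wild type, all lower, compare with 25.8% of all tested genes called in either direction, 12.5% higher and 13.2% lower. The groups did not overlap for those 5 genes, against 32.7% of all tested genes. The median log2 fold change was -0.31 over the 10 genes and -0.015 over all genes tested. For each of the 5 the exact permutation p of the single gene was 0.0286, the smallest possible. The second homozygous KO library was the highest of its group for H2-K1, H2-D1, H2-Q7, B2m, Tap2, Tapbp and Nlrc5. The animal numbers in the labels fall into runs of 44 to 51 (1 homozygous KO, 3 wild types) and 56 to 63 (2 and 1). Within the first run the log2 difference was -1.46 for H2-K1, -0.98 for H2-D1, -2.11 for H2-Q7, -0.71 for Tapbp and -1.94 for Nlrc5. Within the second run it was -1.34, -0.88, -1.28, -0.45 and -1.59 in the same order. No test was made within a run, and with the run as a term in the edgeR fit to all libraries 5 of the 10 genes were called.

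On chromosome 17 the members not called were neighbours. In GRCm38, Tapbp and H2-K1, which fell, lie on one side of the contiguous group Psmb9, Tap1, Psmb8 and Tap2, none of which was called, and H2-D1 and H2-Q7, which fell, lie on the other. Levels were compared between genes per kilobase of exon. The length was that of the merged exons of all GENCODE transcripts of a gene, while the annotation used for counting is not given. In wild type the mean levels were 252 CPM per kilobase for B2m, 57.9 for H2-D1, 43.2 for H2-K1, 40.0 for Psmb8, 34.2 for Tapbp, 24.9 for Tap2, 20.4 for Tap1, 10.5 for Psmb9, 5.34 for Nlrc5 and 1.48 for H2-Q7. Of the neighbours in this order only H2-K1 and Psmb8 overlapped in their libraries. In homozygous KO the mean levels were 260 CPM per kilobase for B2m, 40.4 for Psmb8, 31.5 for H2-D1, 24.9 for Tap2, 23.5 for Tapbp, 20.2 for Tap1, 16.1 for H2-K1, 1.51 for Nlrc5 and 0.445 for H2-Q7, and Psmb9 lay between H2-K1 and Nlrc5 at 9.49 to 10.7 over its libraries. Per kilobase, H2-K1 thus stood above Psmb8, Tapbp, Tap2 and Tap1 in wild type and below all of them in homozygous KO. Before division by length the wild-type means were 127 CPM for H2-K1 and 135 CPM for Psmb8, so the order of these 2 depends on the length used. In homozygous KO, Psmb8 overlapped H2-D1 per kilobase, and Tapbp overlapped both Tap2 and Tap1. In heterozygous KO the order was that of wild type.

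**Figure D2:**
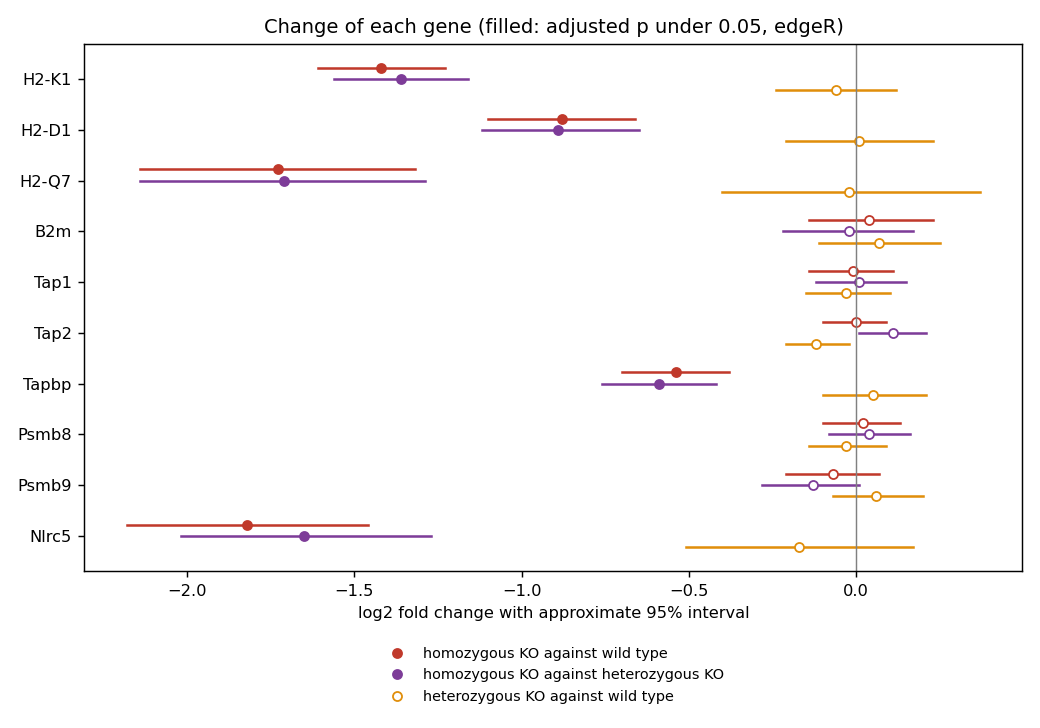
Log2 fold change (x axis) of each gene with its approximate 95% interval in homozygous KO against wild type (red), homozygous KO against heterozygous KO (purple) and heterozygous KO against wild type (orange), where filled points passed an adjusted p of 0.05 in edgeR. The 5 genes with filled points run from -1.82 (Nlrc5) to -0.54 (Tapbp) in the first comparison, and all intervals of the heterozygous KO except that of Tap2 include 0.

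In heterozygous KO against wild type 0 of the 10 genes were called by edgeR, as against 0.0154% of all tested genes (3 genes). The count was also 0 with DESeq2, which called 71 genes in all, and 1 gene, Tap2, had an unadjusted p under 0.05. Log2 fold changes ran from -0.17 to 0.07, with a median of -0.03. The approximate 95% interval was -0.24 to 0.12 for H2-K1, -0.21 to 0.23 for H2-D1, -0.40 to 0.37 for H2-Q7, -0.10 to 0.21 for Tapbp and -0.51 to 0.17 for Nlrc5, and changes inside these intervals were not detectable here. Tap2 was the 1 gene whose heterozygous KO libraries did not overlap the wild types, against 8.69% of all tested genes. It was at 92.3% of wild type (log2 fold change -0.12, SE 0.05), with an adjusted p of 0.664 in edgeR and an exact permutation p of 0.0571.

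Homozygous against heterozygous KO asks whether loss of the second allele made a difference, and the 2 groups compared hold no wild type. The filter, scaling and spread came from the fit to all 10 libraries. With only these 2 groups fitted, 2553 of all genes were called in place of 3342, and 5 of the 10 members. The same 5 genes were called, all lower, where 17.1% of all tested genes were called, 7.63% higher and 9.50% lower. H2-K1 was at 38.9% of heterozygous KO (log2 fold change -1.36, SE 0.10, adjusted p = 9.35e-06, edgeR). The log2 fold change was -0.89 for H2-D1, -1.71 for H2-Q7, -0.59 for Tapbp and -1.65 for Nlrc5, with edgeR adjusted p of 0.000474, 0.000315, 0.000821 and 0.000177. The groups did not overlap for these 5 and for Tap2, which was at 108% of heterozygous KO (adjusted p = 0.168, edgeR), against 33.3% of all tested genes. With 3 libraries against 3, an exact permutation test cannot go below 0.10, which each of the 6 reached. The homozygous KO libraries are shared with the comparison against wild type, so the 2 comparisons are not independent.

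**Figure D3:**
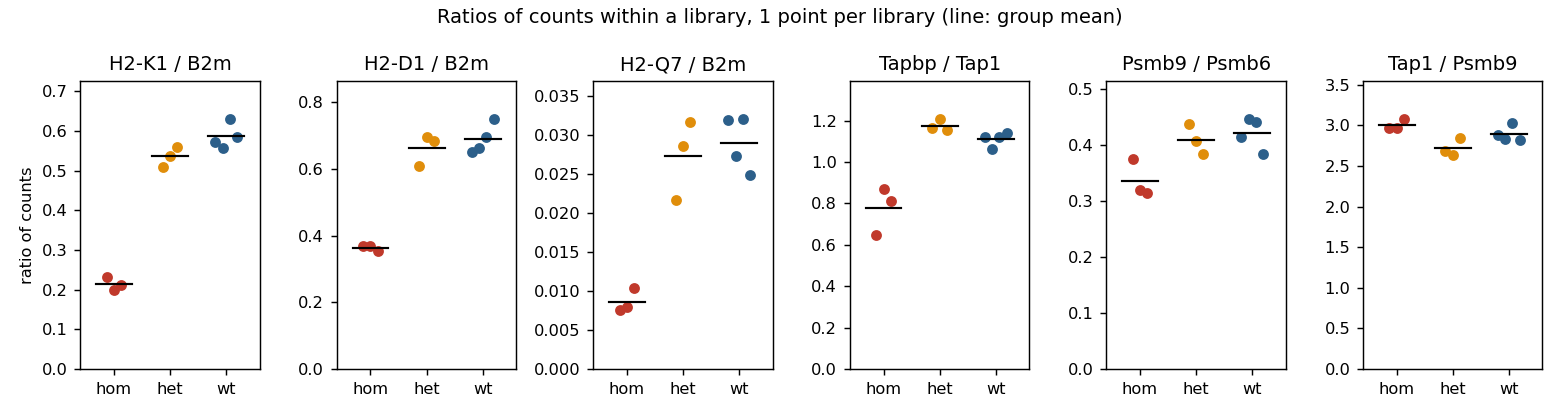
Ratio of the counts of 2 genes within each library (linear axis from 0, no unit) in homozygous KO (hom), heterozygous KO (het) and wild type (wt), with 1 point per library and a line at the group mean. The 3 heavy chains fall against B2m and Tapbp against Tap1 in homozygous KO, with H2-K1 to B2m at 0.198 to 0.231 against 0.557 to 0.631 in wild type, while Tap1 to Psmb9 overlaps the wild types.

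The wider class I pathway was described from 4 lists of 44 further genes, all tested. In homozygous KO against wild type 6 were called higher and 18 lower, 24 in all, against 15 without homozygous KO library 3 and 13 with only the 2 wild types whose titles hold 1 wt word as controls. The 6 are 13.6% and the 18 are 40.9% of the 44, beside 12.5% of all tested genes called higher and 13.2% lower. In heterozygous KO 0 of 44 were called, where 3 of all tested genes were. In homozygous against heterozygous KO 4 were called higher and 12 lower (9.09% and 27.3%, beside 7.63% and 9.50% of all tested genes). The median log2 fold change of the 44 was -0.18 in homozygous KO against wild type.

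Of 16 other class I heavy-chain genes, 11 were lower and 1 higher in homozygous KO, where 13.2% and 12.5% of all tested genes were. The median log2 fold change of the 16 was -0.44. H2-T3, the gene of the thymus leukemia antigen, was at 5.42, 3.75 and 2.44 CPM in homozygous KO and 12.5, 9.99, 12.7 and 8.84 CPM in wild type (log2 fold change -1.50, SE 0.25, adjusted p = 0.00138, edgeR). H2-T22 and H2-T10, whose products are seen by gamma-delta T cells, fell by 0.49 and 0.47 on the log2 scale (edgeR adjusted p 0.000276 and 0.00316). H2-M2 fell by 2.38 from a low level, 0.810 to 3.42 CPM in wild type against 0.274 to 0.599 CPM (adjusted p = 0.00437, edgeR), and H2-Q6, the neighbour of H2-Q7, had a log2 fold change of -1.11 (adjusted p = 0.00580, edgeR). H2-Q2 went the other way, at 143, 154 and 115 CPM in homozygous KO against 85.5 to 101 CPM in wild type (log2 fold change 0.55, SE 0.09, adjusted p = 0.00133, edgeR). The 4 not called, named after their values were seen, were H2-Q1, H2-Q4, H2-Q10 and H2-Bl. In heterozygous KO the level of H2-T22, at 91.0, 96.3 and 99.0 CPM, lay above every wild type (71.9 to 85.9 CPM) without being called (adjusted p = 0.522, edgeR).

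Of the 5 other loading and trimming genes 2 were lower, where 13.2% of all tested genes were. Erap1, the aminopeptidase that trims peptides in the endoplasmic reticulum, was at 76.9, 90.3 and 78.5 CPM in homozygous KO against 114, 112, 110 and 104 CPM in wild type, without overlap (log2 fold change -0.43, SE 0.06, adjusted p = 0.000513, edgeR). Tapbpl, a peptide editor related to tapasin and named after its value was seen, had a log2 fold change of -0.33 (adjusted p = 0.0143, edgeR). The general chaperones Calr, Canx and Pdia3, the 3 others of the list, were not called.

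Of 8 other proteasome genes 2 were higher and 2 lower, where 12.5% and 13.2% of all tested genes were. Psmb7, the constitutive subunit that Psmb10 replaces in the immunoproteasome, was at 153, 156 and 155 CPM in homozygous KO against 123, 128, 115 and 128 CPM in wild type (log2 fold change 0.33, SE 0.06, adjusted p = 0.00182, edgeR). Psmb6, the constitutive partner that Psmb9 replaces and named after its value was seen, rose by 0.26 (adjusted p = 0.0225, edgeR). Psme2, a subunit of the PA28 activator, was lower by a log2 fold change of -0.32 (adjusted p = 0.0127), and Psmb10, also named after its value was seen, by -0.24 (adjusted p = 0.0493, both edgeR). The ratio of Psmb9 to Psmb6 counts averaged 0.336 in homozygous KO and 0.422 in wild type, and that of Psmb10 to Psmb7 0.181 and 0.269, neither with overlap (exact permutation p = 0.0286 each, adjusted p = 0.118). Psmb8 to Psmb5 averaged 3.18 and 3.48, with overlap (exact permutation p = 0.171).

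Of 15 regulators 3 were higher and 3 lower, where 12.5% and 13.2% of all tested genes were. Irf8, an interferon regulatory factor needed for several dendritic cell types and used in B cells, was at 7.49, 6.96 and 6.44 CPM in homozygous KO, 20.4, 22.3 and 23.1 CPM in heterozygous KO and 19.4, 19.9, 22.4 and 21.3 CPM in wild type. It fell to 33.5% of wild type (log2 fold change -1.58, SE 0.09, adjusted p = 1.22e-06, edgeR), the smallest adjusted p of the 44 genes. Nfya and Nfyc, subunits of the factor that binds the CCAAT box, rose by 0.46 and 0.25 on the log2 scale (edgeR adjusted p 0.000583 and 0.00548). Among the calls named after their values were seen, Rfxap, a subunit of the RFX complex that binds the X box, rose by 0.35 (adjusted p = 0.0360, edgeR). Irf9, which carries the interferon signal to the nucleus, had a log2 fold change of -0.40 (adjusted p = 0.0169, edgeR). Irf1, a known activator of class I genes and also named after its values were seen, ranged from 67.0 to 191 CPM in homozygous KO and from 77.1 to 175 CPM in wild type and was not called. The other 8 regulators were not called either.

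**Figure D4:**
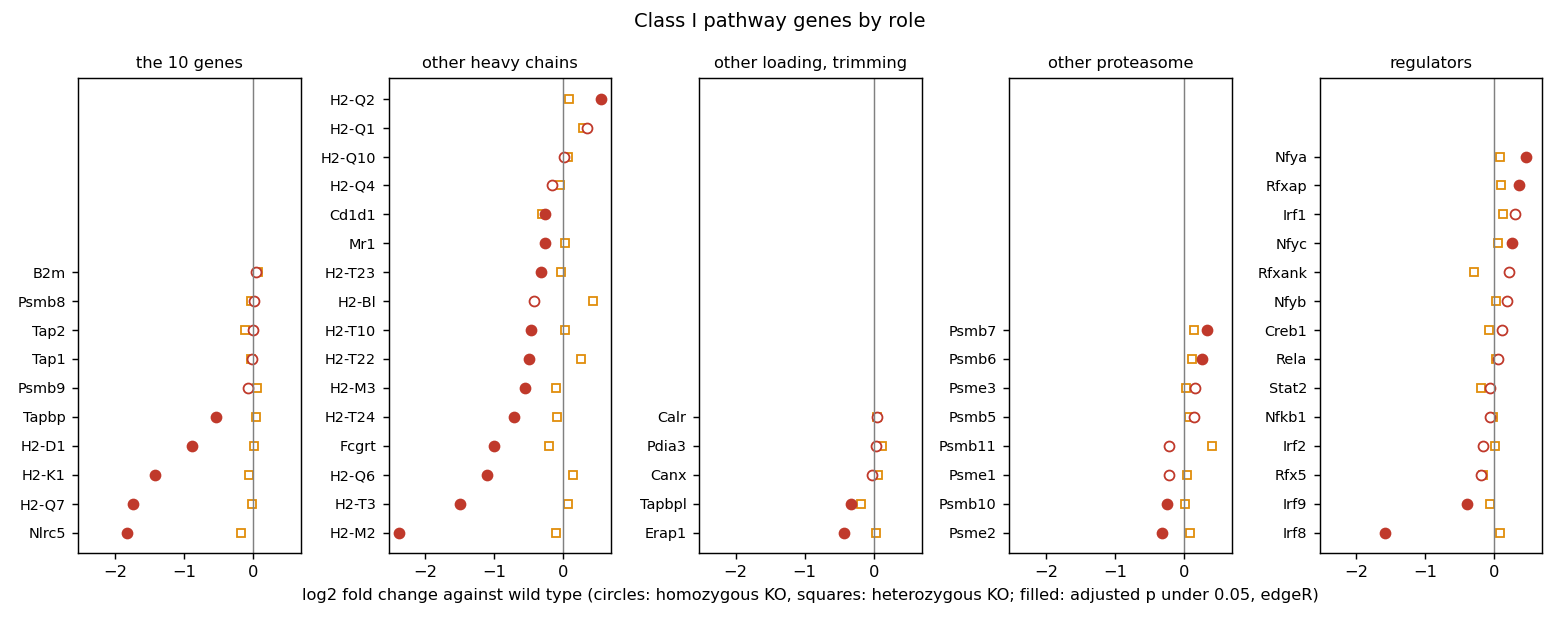
Log2 fold change against wild type (x axis) of the 10 genes and of the further class I pathway genes by role. Of the regulators 1 is not drawn. Circles stand for homozygous KO, filled where the adjusted p in edgeR was under 0.05. Squares stand for heterozygous KO and are drawn open whatever their adjusted p. The filled circles lie mostly left of 0 among the heavy chains (11 lower and 1 higher of the 16 others). Of all tested genes 13.2% were called lower and 12.5% higher in homozygous KO. No gene drawn was called in heterozygous KO, where 0.0154% of all tested genes were.

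Genes with a pattern across the 10 libraries most like that of H2-K1 were sought by the root mean square difference of centred log2 CPM, among genes outside the lists with a mean log2 CPM of at least 2. The closest were Shisa5, Dhx58, Amigo2, Zbp1 and Bmf, from 0.0857 for Shisa5 to 0.124 for Bmf, where the SD of H2-K1 itself was 0.686. Shisa5, for example, was at 70.5, 69.0 and 51.9 CPM in homozygous KO, 146, 165 and 165 CPM in heterozygous KO and 154, 160, 190 and 154 CPM in wild type. Dhx58 encodes an RNA sensor of the RIG-I family and Zbp1 a sensor of nucleic acids. The closest to Nlrc5 were Ly6a (0.146), Zeb2 (0.190), Oas2 (0.202), Dennd5a (0.203) and Gimap8 (0.205), where the SD of Nlrc5 was 0.897. Ly6a, the surface protein Sca-1, was at 1.57, 2.34 and 1.25 CPM in homozygous KO against 6.58 to 7.37 CPM in wild type. These genes were picked for their likeness, so their differences are a description.

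Interferon-induced and class II genes moved in the same libraries. The counts of these lists and of the cell type markers stand beside 12.5% of all tested genes called higher and 13.2% called lower in homozygous KO against wild type. Of 20 genes of the interferon response 11 were lower and 1 (Bst2) higher in homozygous KO, with a summed level of 314 to 340 CPM against 429 to 519 CPM in wild type and 446 to 457 CPM in heterozygous KO. Among them the log2 fold change was -1.27 for Gbp2 and -2.02 for Ifit1 (edgeR adjusted p 3.45e-06 and 4.86e-06). All 9 MHC class II genes in the table were lower, with a summed level of 74.3 to 147 CPM against 199 to 267 CPM in wild type.

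Markers of several cell types also moved between the groups, and their part in the class I results was not tested. In bulk tissue, fewer cells of a type and less RNA per cell cannot be told apart. Of 8 markers of mature single-positive thymocytes 7 were lower in homozygous KO, with a summed level of 234 to 299 CPM against 462 to 622 CPM in wild type and 443 to 489 CPM in heterozygous KO. Il7r, the interleukin-7 receptor, and Klf2, a factor of thymocytes about to leave, fell by 1.97 and 1.58 on the log2 scale (edgeR adjusted p 0.000154 and 0.000285). None of these 8 markers was at or below 3 counts in all homozygous KO libraries. Of 12 markers of dendritic and myeloid cells 10 were lower and 1 higher, with sums of 36.0 to 78.3 CPM against 72.4 to 101 CPM. Siglech, of plasmacytoid dendritic cells, was at no more than 3 counts in every homozygous KO library. Of 8 B-cell markers 6 were lower, with sums of 299 to 344 CPM against 339 to 404 CPM, and Ms4a1 and Igkc were at no more than 3 counts in every homozygous KO library. Of 6 natural killer cell markers 3 were lower, with sums of 50.3 to 87.7 CPM against 74.8 to 84.2 CPM.

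The other marker lists moved less uniformly. Of the 8 markers of double-positive thymocytes 1 (Cd8a) was higher and 2 (Rag1 and Cd1d1) were lower, with sums of 7498 to 7733 CPM in homozygous KO against 9242 to 10529 CPM in wild type. Rag1 alone, at 3328 to 3639 CPM against 5656 to 6622 CPM, made up most of the wild-type sum. Of the 8 log2 fold changes 4 were positive and 4 negative, with a median of -0.06. Of 9 thymic epithelial markers that were counted 4 were higher and 1, Aire, was lower, with sums of 183 to 333 CPM against 142 to 202 CPM. Of 7 fibroblast markers 4 were higher and 1 lower (18.9 to 53.4 CPM against 26.4 to 37.0 CPM), of 5 endothelial markers tested 1 was higher (151 to 160 CPM against 144 to 157 CPM for the 6 listed), and of 7 erythroid markers that were counted 1 was higher (229 to 2251 CPM against 352 to 1855 CPM). In heterozygous KO 0 genes of any of these marker lists were called, where 3 of all tested genes were.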

How the data were processed

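Total RNA of the thymus was sequenced from 10 mice. The authors deposited a single table of read counts for each gene and animal, not normalized. The submitters' processing notes name CASAVA, STAR 2.4.1d, HTSeq 0.6.1p1 and the builds NCBIM37 and mm9. The study's methods describe a BWA-based pipeline and HTSeq for its RNA sequencing. The annotation release and strand setting are not given in the sources used here. Reads shared by near-identical genes may therefore be dropped or split. Columns were assigned by the animal and library numbers that their names share with the titles, and groups came from the titles. The columns of wild types 3 and 4 also hold the word het, which their titles lack.

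All 35375 features entered the library totals. Symbols, positions and exon lengths came from GENCODE M21 (GRCm38), which matched 30204 of 34467 Ensembl identifiers. Of 908 features with other names, 134 carry a symbol of the annotation, and 129 of these lie on the chromosome and strand that the name gives, which is how Psmb9 was matched. No GRCm38 coordinate was used on the counts.

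The main test was the quasi-likelihood test of edgeR 4.0.16 under R 4.3.3 (glmQLFit, then glmQLFTest), fitted once to all 10 libraries after filterByExpr and TMM scaling. The common biological coefficient of variation was 0.207. The call threshold was 0.05 on p-values adjusted by Benjamini-Hochberg over the 19511 genes tested. The SE was the absolute log2 fold change divided by the square root of F, and intervals are normal approximations. The steps were tested on simulated counts. Single genes and ratios of counts were compared by exact two-sided permutation of libraries. Alternatives were DESeq2 1.42.0 (size factors and test), library totals, no filter on low counts, the replicate number, animal-number run or Xist level in the model, subsets of the controls, only the 2 groups compared, and leaving out each library. Within groups, pairs of libraries differed by 13.5 to 116 in chi-square per degree of freedom, so none was a duplicate. Promoter stretches were aligned globally with Biopython 1.88.

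The 10 genes, the lists and the ratios were chosen with earlier results of these data known. The lists were written from general knowledge: other class I heavy chains, loading and trimming, proteasome and regulators, then interferon response, MHC class II and cell type markers. The text names the 10 genes and Usp7. Of the pathway lists it may name up to 10 called genes per comparison by adjusted p, and of each other list up to 3. It also names the 5 genes most like H2-K1 and the 5 most like Nlrc5. Names outside this rule are marked where they occur. Of the regulators 1, though counted, is not reported here by name.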

Additional observations from a re-analysis of the deposited data

Results flagged for a closer look

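In homozygous KO the effect against wild type differed from that in heterozygous KO for 5 of the 10 genes, by the direct test of homozygous against heterozygous KO in edgeR (n = 3 each). The difference of the 2 log2 effects was -1.36 for H2-K1, -0.89 for H2-D1, -1.71 for H2-Q7, -0.59 for Tapbp and -1.65 for Nlrc5. Every homozygous KO library lay below every heterozygous KO library for these genes. No library of the wild-type group, the only group of 4, stood far from the others for any of the 10 genes.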

How the results depend on the processing

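H2-K1, H2-D1, H2-Q7, Tapbp and Nlrc5 were called lower in homozygous KO against wild type under each of the 20 alternatives run, with a log2 fold change of -1.52 to -1.34 for H2-K1, -1.03 to -0.78 for H2-D1, -1.84 to -1.39 for H2-Q7 (21 alternatives, with the added sum over H2-Q6 and H2-Q7), -0.63 to -0.46 for Tapbp and -2.05 to -1.63 for Nlrc5. Against heterozygous KO the same 5 were called under each of the 18 alternatives, and in heterozygous KO against wild type 0 under each of the 20. The same-numbered libraries of the groups share only a number (correlations of their deviations from -0.186 to 0.328, 2 of 10 libraries closest to their own number). A replicate block left 5, 0 and 5 of the 10 genes called, 23, 0 and 19 of the 44 pathway genes, and 4934, 5 and 3293 of all genes. For homozygous KO against wild type 24 pathway genes were called, and 13 with the controls with 1 wt word in the title, a fit with fewer samples. Leaving out 1 library at a time gave 15 to 25.

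Signs changed only for genes that were not called, near 0. In homozygous KO against wild type, Tap2 was at 0.00 with DESeq2 size factors, with the DESeq2 test and with the animal-number block, and at 0.01 with the controls with 1 wt word. B2m was at -0.05 and Psmb8 at -0.08 with library totals alone, Psmb8 at -0.02 with the controls with 1 wt word, and Tap1 at 0.01 with the Xist covariate and at 0.03 with the controls with 2 wt words. In heterozygous KO against wild type, H2-D1 was at -0.06 with the animal-number block, and with the Xist covariate H2-D1 was at -0.05, B2m at -0.01 and Tap1 at 0.01. With the controls with 1 wt word H2-D1 was at -0.05, H2-Q7 at 0.01 and Tapbp at -0.01, with the controls with 2 wt words Tap1 was at 0.02 and Psmb8 at 0.01, and with H2-Q6 and H2-Q7 summed H2-Q7 was at 0.06. In homozygous against heterozygous KO, Tap1 was at -0.07 and Psmb8 at -0.05 with library totals alone, Tap1 at -0.01 with no filter on low counts, and with the Xist covariate B2m was at 0.02 and Tap1 at -0.01. Leaving out 1 library at a time, homozygous KO against wild type gave -0.05 to 0.06 for Psmb8, -0.10 to 0.12 for B2m, -0.06 to 0.03 for Tap1 and -0.03 to 0.01 for Tap2. Heterozygous KO against wild type gave -0.14 to 0.01 for H2-K1, -0.18 to 0.16 for H2-Q7, -0.06 to 0.02 for Tap1, -0.04 to 0.01 for Psmb8 and -0.05 to 0.10 for H2-D1. Homozygous against heterozygous KO gave -0.17 to 0.05 for B2m, -0.04 to 0.04 for Tap1 and -0.03 to 0.08 for Psmb8. The cause was not tested.

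Library totals alone moved the median of all genes to -0.11 in homozygous KO against wild type and to -0.08 against heterozygous KO, and the share of calls that were higher from 48.6% to 29.0% and from 44.6% to 26.9%. Of all genes, 5030 were called for homozygous KO against wild type, and 2670 with the controls with 1 wt word. Against heterozygous KO they were 3342, and 2153 without heterozygous KO library 3. DESeq2 called 71 genes in heterozygous KO against wild type, where edgeR called 3. With 3 or 4 animals per group, differences of the size of the heterozygous KO intervals cannot be resolved.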
